A study of Mus musculus with 4 samples.

Results

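The insulin-like growth factor (IGF) axis was described here through 10 genes, taken by symbol from the gene lists of every library of adult mouse stria vascularis (SV). They are the ligands Igf1 and Igf2, the receptors Igf1r and Igf2r, and the binding proteins Igfbp2, Igfbp3, Igfbp4, Igfbp5, Igfbp6 and Igfbp7. All 10 were found in each of the 3 libraries of cells, among 27998 listed genes, and in the library of nuclei, among 48816. As background, IGF-1 and IGF-2 are secreted peptides that signal through IGF1R, a receptor tyrosine kinase, whereas IGF2R binds IGF-2 and carries it to lysosomes. The IGF-binding proteins hold the ligands outside the cell and set how much of them reaches the receptors, and IGFBP7 binds IGFs only weakly. In the cochlea, loss of IGF-1 is known to cause deafness in mice and in people.

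The SV lines the lateral wall of the cochlea. Its marginal cells face the endolymph, intermediate cells are melanocyte-derived, basal cells form the barrier on the side of the fibrocytes, and spindle and root cells lie at its borders. The libraries came from CBA/J mice at postnatal day 30, without treatment or engineered allele in the labels, as 3 captures of whole cells and 1 capture of nuclei on the 10x Genomics Chromium system. Each capture pooled several mice in one suspension, so the capture was taken as the replicate, and the nuclei have none.

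The captures of cells held 392, 1358 and 1580 barcodes and 2811309, 8113494 and 8340882 unique molecular identifiers (UMIs, counted RNA molecules), and the capture of nuclei held 11057 barcodes and 22332501 UMIs. After doublets and shallow barcodes had been left out, 377, 1314 and 1461 cells and 9723 nuclei remained. Captures shared between 0 and 32 barcode sequences with one another. The median mitochondrial share of UMIs in a capture was 38.6% to 45.4% in cells and 8.23% in nuclei. Clusters were named from markers that excluded the 10 genes, so that each name stands for a cluster like that type. This gave 134 marginal, 914 intermediate, 94 basal, 32 spindle/root and 27 macrophage cells. All 10 marginal, all 8 basal, all 7 spindle/root and all 10 macrophage markers, and 9 of 10 intermediate markers, were detected in their own group. Detection means any UMI in the group, and since the names came from these markers it is no check of them. Intermediate cells also held UMIs of all 10 marginal, all 8 basal and all 7 spindle/root markers. Clusters that met the rule for no class were left unnamed and held 53.6% of the cells, with 53.5% of their summed UMIs mitochondrial, and 39.1% of the nuclei. Kept apart from these were 41 cells led by Dcn and 71 cells led by Otos, which had markers of both fibrocytes and basal cells and were also given no name. Levels are given as CPM, the UMIs of the gene summed over a group after the UMIs of all genes had been scaled to the same total in every group, and intervals for single sums are exact 95% Poisson intervals that cover counting error only.

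Of the binding proteins, Igfbp2 and Igfbp5 are neighbours in the genome. On mm10, Igfbp2 (ENSMUSG00000039323) lies on the plus strand at chr1:72824503-72852474 and Igfbp5 (ENSMUSG00000026185) on the minus strand at chr1:72857932-72874884. Their 3' ends face each other across 5457 bases, with 0 annotated genes between them. The sequences before their start sites are shown because the levels of the pair were set side by side. Both are RefSeq sequence on GRCm38.p6, from 250 to 31 bases before the start and outside exons, and every GGGCGG is in capitals.
Igfbp2 (chr1:72824230-72824449, plus strand): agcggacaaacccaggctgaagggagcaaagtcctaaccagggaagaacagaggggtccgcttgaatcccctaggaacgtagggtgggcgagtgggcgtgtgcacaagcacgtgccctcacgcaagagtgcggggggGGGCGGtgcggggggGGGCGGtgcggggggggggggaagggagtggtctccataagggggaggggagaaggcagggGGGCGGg
Igfbp5 (chr1:72874896-72875115, minus strand): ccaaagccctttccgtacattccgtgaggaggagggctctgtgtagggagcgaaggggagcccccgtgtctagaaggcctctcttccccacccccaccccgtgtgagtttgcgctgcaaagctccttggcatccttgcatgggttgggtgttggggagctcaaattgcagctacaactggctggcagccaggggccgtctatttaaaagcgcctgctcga
The GGGCGG motif, the core of a GC box, stood 3 times in the Igfbp2 window and 0 times in the Igfbp5 window on the strand shown. Over 32851 such windows of the table, 28.5% held it on either strand. The windows had a GC content of 68.6% and 59.5%.

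Igf1 RNA was concentrated in marginal cells. In captures 1, 2 and 3, marginal cells held 1853, 1856 and 2508 CPM, from 469, 1470 and 1166 UMIs. Basal cells held 210, 95.2 and 192 CPM and intermediate cells 59.5, 63.3 and 71.4 CPM. Spindle/root cells held 494, 617 and 422 CPM, of which the first value came from 4 cells. The lowest marginal capture therefore lay above the highest capture of each other type. Of the 32 spindle/root cells 17 held a UMI of Igf1, and the top 5 held 78.4% of its 148 UMIs. The mean over captures was 2073 ± 377 CPM (SD, n = 3) in marginal cells, 166 ± 61.8 (n = 3) in basal cells, 64.8 ± 6.05 (n = 3) in intermediate cells and 520 ± 138 (n = 2, captures 2 and 3) in spindle/root cells. Compared with the other 3 types on average, Igf1 in marginal cells was 3.47 ± 0.15 higher on the log2 scale (± SE, adjusted p = 3.08e-11, edgeR quasi-likelihood test, Benjamini-Hochberg adjusted). Each step of the order from marginal over spindle/root and basal to intermediate cells passed the same edgeR test, with adjusted p-values of 1.73e-05, 0.00168 and 0.00414. Spindle/root cells as a whole did not pass it against the mean of the other types (log2 fold change 0.69 ± 0.26, adjusted p = 0.0765), and without capture 2 this value was -0.03. Without capture 1, which holds no spindle/root sum, it passed at 0.71 (adjusted p = 0.00916, edgeR), and without capture 3 at 1.06 (adjusted p = 8.12e-05, edgeR). Without capture 2 or capture 3 the type has 1 sum, and the fit assumes that it varies like the other types.

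**Figure D1:**
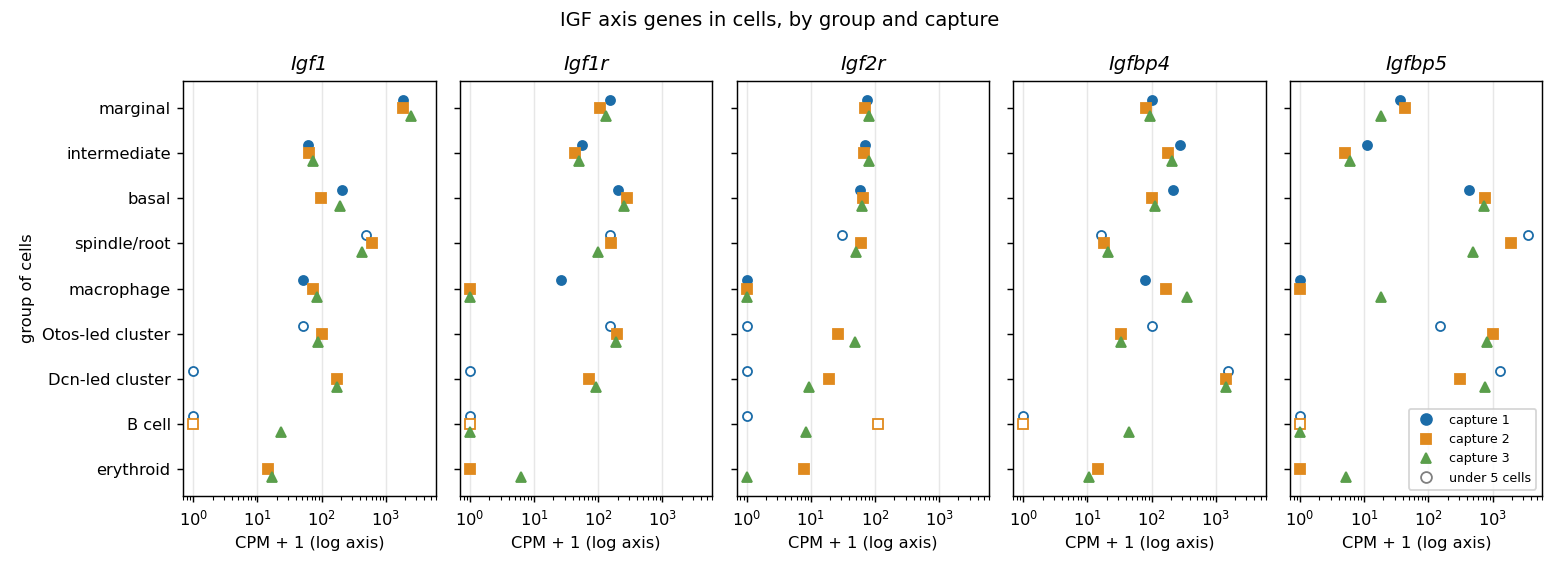
Level of the 5 genes with enough counts for a test, in CPM + 1 on a log axis, for each group of cells (vertical axis) and each of the 3 captures (coloured symbols, open where the group had fewer than 5 cells). Igf1 in marginal cells sits between 1853 and 2508 CPM, right of all other groups, and Igf1r is highest in basal cells.

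Igf1 was seen in almost every marginal cell. A UMI of Igf1 was found in 99.3% of marginal and 29.4% of intermediate cells at median depths of 11493 and 5957 UMIs, and in 14.0% of erythroid cells and 7.50% of B cells, types not known for Igf1, at 10194 and 2708 UMIs. After each cell was thinned to 1000 UMIs, these shares were 80.6%, 5.25%, 2.00% and 0%. The 3 marginal clusters all held it, at 1645 CPM in the one led by Enpep, 2060 CPM in the one led by Lrp2 and 3445 CPM in the one led by Bglap3. Marginal cells held 44.3% of the 7002 Igf1 UMIs in cells, and unnamed cells a further 43.8%. Of the unnamed clusters, one of 413 cells led by Mbp had 855 CPM, with Kcne1, a marginal marker, among its leading genes.

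In nuclei Igf1 had the same leading type. Marginal nuclei held 2448 CPM (interval 2402 to 2495) and 56.1% of the 19061 Igf1 UMIs. Spindle/root, basal and intermediate nuclei held 787, 757 and 285 CPM, whereas erythroid and B cell nuclei held 115 and 200 CPM. The summed level of the 10 marginal markers moved with these values, at 15978 CPM in marginal, 3262 in spindle/root, 5027 in basal, 2655 in intermediate, 718 in erythroid and 1305 CPM in B cell nuclei. Per 1000 CPM of marginal markers, Igf1 stood at 153 CPM in marginal, 151 in basal, 160 in erythroid and 153 CPM in B cell nuclei. The Igf1 of basal nuclei thus had a ratio to marginal RNA near that of erythroid and B cell nuclei. Not all other types shared it, with 190 CPM in neutrophil nuclei, from 34 Igf1 UMIs, and 115 CPM in fibrocyte nuclei. T cell nuclei, with only 5 Igf1 UMIs, stood above all of these. The ratio was 107 CPM in intermediate and 241 CPM in spindle/root nuclei. In cells the same measure was 165 CPM in marginal, 54.1 in basal, 29.6 in intermediate and 207 CPM in spindle/root cells. A single marker held 2109 of the 2231 CPM of marginal markers in intermediate and 2177 of 2702 CPM in basal cells. In marginal and spindle/root cells the highest marker held 7481 of 12428 and 1272 of 2502 CPM. The measure was 156 CPM in erythroid cells, 103 in B cells and 200 CPM in the 9 neutrophil cells. The values of B cells and neutrophil cells rest on few Igf1 UMIs, at 19.2 and 31.4 CPM. It was 67.5 CPM in Otos-led, 800 in Dcn-led and 1071 CPM in macrophage cells. Marginal markers summed to 1353, 212 and 70.5 CPM in these groups. The part of free RNA in the lower levels was not tested. Igf1 lies at chr10:87858265-87937042 and overlaps an annotated antisense gene, Igf1os. The study's methods name default settings of CellRanger without stating how strand was handled, so the value is uncertain where the pair overlaps.

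Igf2, the fetal growth factor, was not detected in the 4 types of SV cells. In cells all 37 of its UMIs fell in the cluster led by Dcn, in 34.1% of the 41 cells, at 152 CPM in capture 2 and 166 CPM in capture 3, with 0 UMIs from the 2 cells of capture 1. One cell held 35.1% of the UMIs. Marginal, intermediate, basal and spindle/root cells held 0 Igf2 UMIs. A count of 0 was bounded by 3 UMIs over a group. Taken at its pooled 157 CPM, the Dcn-led level was at least 78.9-fold that of marginal, 310-fold that of intermediate and 65.8-fold that of basal cells. Without its highest cell the Dcn-led level was 104 CPM, and its own counting error is not part of these folds. Nuclei held 16 Igf2 UMIs in all, 5 of them in a cluster of 36 nuclei led by Mgp. Igf2 lies at chr7:142650766-142666816 and overlaps the antisense gene Igf2os, the microRNA Mir483 and the gene Gm49394.

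Igf1r, the signalling receptor, had its highest level in basal cells. Captures 1, 2 and 3 gave 204, 275 and 253 CPM in basal, 150, 106 and 131 in marginal, and 55.6, 42.2 and 48.6 CPM in intermediate cells. Spindle/root cells held 150, 154 and 98.2 CPM, on 4 cells in the first. Each basal capture lay above every capture of the other types, the marginal and spindle/root values overlapped, and the intermediate values lay below both. The basal mean was 244 ± 36.1 CPM (SD, n = 3), against 129 ± 22.1 in marginal and 48.8 ± 6.67 in intermediate cells (n = 3 each). Igf1r was higher in basal cells than in the mean of the other types by a log2 fold change of 1.46 ± 0.15 (adjusted p = 3.06e-12) and lower in intermediate cells, at -1.41 ± 0.17 (adjusted p = 1.74e-10, edgeR quasi-likelihood test, Benjamini-Hochberg adjusted). Marginal and spindle/root cells were not told apart (log2 fold change 0.06 ± 0.32, adjusted p = 0.932, edgeR), and both differed from basal cells. A UMI of Igf1r was found in 92.6% of basal cells, and in 19.1% after thinning. Both basal clusters held it, at 329 CPM in the one led by Ctxn3 and 203 CPM in the one led by Coch, and the Otos-led cells held 151, 192 and 189 CPM. Basal nuclei again led, at 678 CPM (interval 630 to 728), before spindle/root at 370, marginal at 266 and intermediate nuclei at 156 CPM. Erythroid and B cell nuclei held 24.1 and 47.6 CPM, but neutrophil nuclei held 242 CPM, from 42 UMIs. Igf1r spans chr7:67952827-68233668 with no overlapping gene in the annotation.

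Igf2r, the receptor that clears IGF-2, had similar CPM in marginal, intermediate and basal cells. Captures 1, 2 and 3 gave 75.1, 68.2 and 79.6 CPM in marginal, 69.5, 65.7 and 80.9 in intermediate, 56.8, 63.4 and 61.3 in basal, and 29.9, 60.0 and 49.1 CPM in spindle/root cells. Marginal and intermediate values overlapped, and the basal values lay just below. With mitochondrial genes left out, pooled levels were 116 CPM in intermediate, 102 in marginal, 85.1 in basal and 57.5 CPM in spindle/root cells, the last from 14 UMIs. Intermediate against spindle/root cells stood at 0.83 ± 0.39 (log2, adjusted p = 0.107, edgeR). None of the 6 differences between pairs of types passed the edgeR quasi-likelihood test after Benjamini-Hochberg adjustment, and neighbours in the order had adjusted p-values of 0.225, 0.0726 and 0.561. In edgeR's scaling, which places intermediate above marginal cells, intermediate cells were higher than the mean of the other types by 0.52 ± 0.17 (log2, adjusted p = 0.0140). That call was lost without capture 3, at 0.39 (adjusted p = 0.230, edgeR), without TMM scaling, at 0.19, and with DESeq2, at 0.50 (adjusted p = 0.0941). Nuclei held 58.9 CPM in intermediate, 53.2 in marginal, 50.8 in spindle/root and 33.1 CPM in basal nuclei. Igf2r lies at chr17:12682406-12769664 and overlaps the antisense gene Airn.

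Igfbp4, which restrains IGF action until it is cleaved, was highest among the 4 types in intermediate cells. Captures 1, 2 and 3 gave 271, 178 and 207 CPM in intermediate, 213, 101 and 110 in basal, and 98.8, 82.1 and 92.5 CPM in marginal cells. Spindle/root cells held 15.0, 17.1 and 19.6 CPM, from only 5 UMIs in 4 cells over all captures. Intermediate cells were highest within every capture, although the basal value of capture 1 lay above the intermediate values of captures 2 and 3. The means were 219 ± 47.4, 141 ± 62.0 and 91.1 ± 8.45 CPM (SD, n = 3 each) and, in spindle/root cells, 18.4 ± 1.77 (n = 2). Against the mean of the other types, Igfbp4 was higher in intermediate cells by 2.06 ± 0.17 (adjusted p = 2.76e-16) and in basal cells by 0.88 ± 0.24 (adjusted p = 0.00385), and lower in spindle/root cells by -2.98 ± 0.49 (log2, adjusted p = 1.53e-06, edgeR quasi-likelihood test, Benjamini-Hochberg adjusted). Without capture 1 the basal value was 0.65 and no longer passed (adjusted p = 0.0961). By pairs, intermediate against basal cells stood at 0.88, marginal against basal at -0.63 and basal against spindle/root cells at 2.89 (log2). Intermediate against spindle/root cells stood at 3.78 and marginal against intermediate cells at -1.51. The largest part of the basal value, and of the intermediate value of 2.06, thus came from the spindle/root cells, with their 5 UMIs. All 3 steps of the order passed the edgeR test, with adjusted p-values of 1.61e-06, 0.00777 and 0.00154. Summed intermediate markers had the same order, at 25158 CPM in intermediate, 9863 in basal, 7352 in marginal and 1742 CPM in spindle/root cells. The part of intermediate RNA in the Igfbp4 of basal, marginal and spindle/root cells was not tested. Within basal cells, the Coch-led cluster held 193 CPM and the Ctxn3-led cluster 38.0 CPM. Intermediate nuclei held 69.7 CPM, above basal, marginal and spindle/root nuclei at 28.7, 14.2 and 14.1 CPM. Marginal and spindle/root nuclei thus had like levels, the latter from 5 UMIs.

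Igfbp5, a binding protein that attaches to extracellular matrix, was high in spindle/root and basal cells and low in intermediate cells. Spindle/root cells held 3622, 1920 and 491 CPM in captures 1, 2 and 3 and basal cells 432, 754 and 723 CPM. Marginal cells held 35.6, 42.9 and 17.2 and intermediate cells 9.92, 3.98 and 4.98 CPM. Spindle/root and basal captures overlapped, and all of them lay above the marginal and intermediate captures. Against the mean of the other types, Igfbp5 was higher in spindle/root cells by 4.24 ± 0.50 (adjusted p = 0.00252) and in basal cells by 3.53 ± 0.40 (adjusted p = 0.00192), and lower in intermediate cells by -5.35 ± 0.64 (log2, adjusted p = 0.00142, edgeR quasi-likelihood test, Benjamini-Hochberg adjusted). Marginal cells were lower by -2.42 ± 0.65 (adjusted p = 0.0489, edgeR), and without capture 1 this did not pass (adjusted p = 0.160), nor under 6 other alternatives. Spindle/root and basal cells were not told apart (adjusted p = 0.517), nor were marginal and intermediate cells (adjusted p = 0.150), while the step between the pairs passed (adjusted p = 0.00227, edgeR). One spindle/root cell of capture 1 held 238 of the 516 Igfbp5 UMIs of that type, and without it the level over all captures was 1068 instead of 1808 CPM. With 4 spindle/root cells, capture 1 was not part of the test for that type.

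The clusters within the spindle/root group were unequal in Igfbp5. Its root-like cluster, 20 cells led by Epyc, held 3898 CPM. The cell with 238 of the 516 Igfbp5 UMIs of the type belongs to this cluster, whose level thus rests in large part on it. Its spindle-like cluster, 12 cells with Wfdc18, Anxa1 and Slc26a4 among the leading genes, held 96.0 CPM. Nuclei had the same arrangement, with 530 CPM in the Ceacam16-led and 56.0 CPM in the Wfdc18-led cluster. For Igf1 the order was the reverse, at 257 CPM in the Epyc-led and 733 CPM in the Wfdc18-led cells. In the Wfdc18-led cells 6 marginal markers were raised beside 5 spindle/root markers, and the part of marginal RNA in their Igf1 was not tested. The basal clusters also differed in Igfbp5, with 1147 CPM in Ctxn3-led and 359 CPM in Coch-led cells, and a UMI was found in 87.2% of all basal cells, or 39.4% after thinning. These clusters were drawn from the same cells, so the differences between them carry no test. Spindle/root nuclei held 316 CPM and basal nuclei 122 CPM, against 18.6 CPM in marginal and 12.0 CPM in intermediate nuclei.

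**Figure D2:**
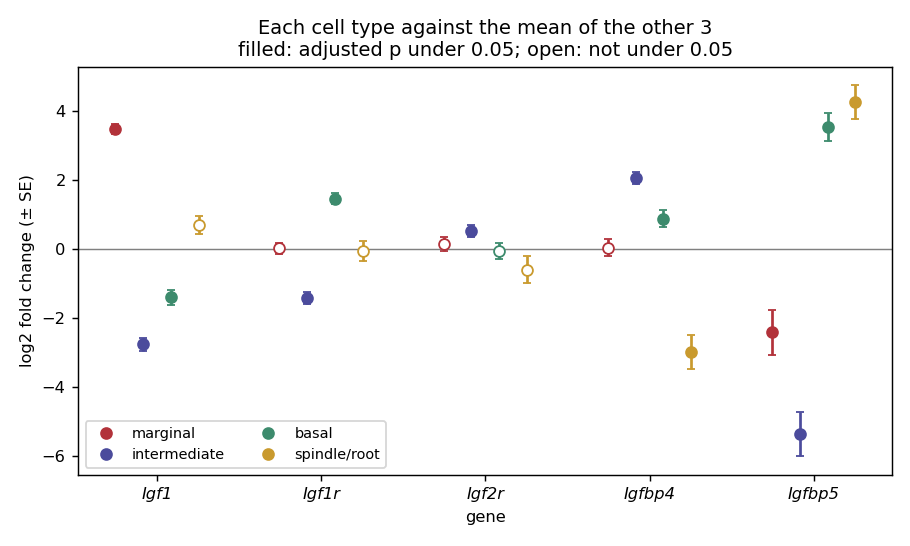
Log2 fold change (± SE) of the 5 tested genes in each of the 4 SV types against the mean of the other 3, with filled points at an adjusted p under 0.05 in edgeR. Igf1 stands out in marginal cells at 3.47, Igf1r in basal cells at 1.46, Igfbp4 in intermediate cells at 2.06, and Igfbp5 lies above 3 in basal and spindle/root cells and below -5 in intermediate cells.

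Of the 10 genes, 5 had enough counts for the test, and Igf2, Igfbp2, Igfbp3, Igfbp6 and Igfbp7 did not. In marginal cells 1 was higher and 1 lower, where 25.5% of all 7254 genes tested were called, 14.7% higher and 10.8% lower. In intermediate cells 2 were higher and 3 lower, beside 35.8% of all genes, 17.9% in either direction. In basal cells 3 were higher and 1 lower, beside 24.2% of all genes, 15.1% higher and 9.14% lower. In spindle/root cells 1 was higher and 1 lower, beside 19.6% of all genes, 11.9% higher and 7.73% lower. Over the 6 pairs of types and 5 genes, 21 of 30 differences passed. Of all genes, 36.2% passed between marginal and intermediate, 29.7% between marginal and basal, and 19% between marginal and spindle/root cells. The shares were 33.1% between intermediate and basal, 26.6% between intermediate and spindle/root, and 21.6% between basal and spindle/root cells. Differences between types were thus common among all genes, and these counts are read only as a description of the 5 genes.

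Igfbp2 was concentrated in cells with markers of both basal cells and fibrocytes. The 41 Dcn-led cells held 1286, 1299 and 820 CPM in captures 1, 2 and 3, from 5, 145 and 99 UMIs, and 82.5% of all 302 Igfbp2 UMIs in cells. The 71 Otos-led cells held 252, 57.5 and 75.7 CPM, and basal cells 8.52, 15.1 and 8.17 CPM. The captures of these 3 groups did not overlap. Marginal, spindle/root, macrophage and B cells held 0 Igfbp2 UMIs. With the same bound on a count of 0, the pooled Dcn-led level of 1054 CPM was at least 531-fold that of marginal cells. A UMI was found in 90.2% of Dcn-led cells, and in 70.7% after thinning. The fibrocyte markers, 8 in all, were all detected in Dcn-led cells and summed to 4811 CPM, beside 3659 CPM of basal markers. In Otos-led cells 7 of 8 were detected, at 6647 CPM beside 3531 CPM of basal markers. A single fibrocyte marker held 3832 CPM of the sum in Dcn-led and 5756 CPM in Otos-led cells. The highest basal marker held 1973 CPM in Dcn-led and 2737 CPM in Otos-led cells. Igfbp2 was among the 10 leading genes of the Dcn-led cluster although it had no part in the clustering, and these groups, chosen after their values had been seen, carry no test.

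In nuclei a cluster of 25, led by Otos, Car3 and Coch, could be named fibrocyte, with 6 of 8 markers detected at 39074 CPM. A single marker held 30550 CPM of this sum. Erythroid markers summed to 65088 CPM in these nuclei, against 4701 CPM in marginal nuclei. Igfbp2 stood at 618 CPM (interval 430 to 859) in these nuclei and at 380 CPM (interval 251 to 553) in 38 nuclei led by Tenm2 and Dcn. The Mgp-led nuclei held 183 CPM, the Meg3-led nuclei 89.5 and basal nuclei 20.6 CPM. B cell and erythroid nuclei held 7.13 and 0.377 CPM, far below the fibrocyte level.

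**Figure D3:**
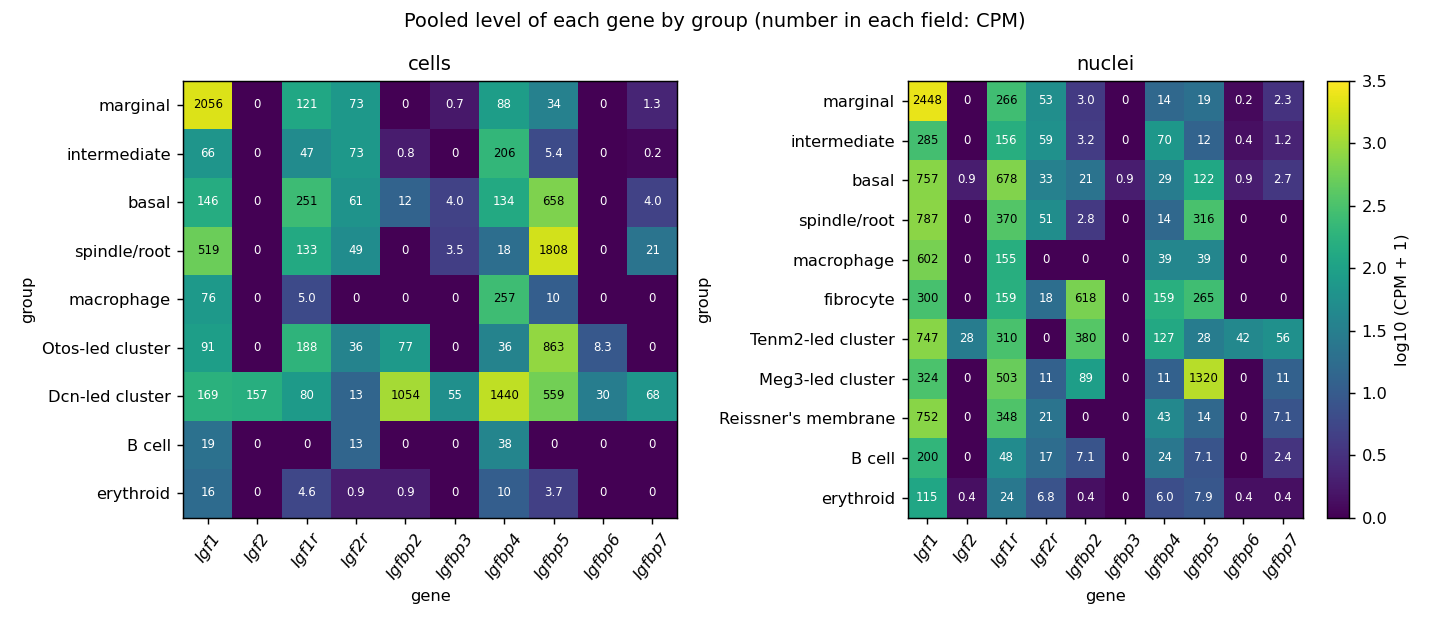
Pooled level of all 10 genes (columns) in groups of cells (left panel) and nuclei (right panel), with the CPM in each field and colour on a log10 (CPM + 1) scale. Igfbp2 and Igf2 stand out in the Dcn-led cells, Igfbp2 also in fibrocyte nuclei at 618 CPM, and Igf1 in marginal cells and nuclei.

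The other binding proteins were also detected in Dcn-led cells, which held 340 UMIs of Igfbp4 and 132 of Igfbp5 against 1219 of Igfbp4 in intermediate and 828 of Igfbp5 in basal cells. Igfbp4 reached 1543, 1434 and 1442 CPM in captures 1, 2 and 3, above every capture of the 4 SV types, with a UMI in 97.6% of the cells, or 63.4% after thinning. Igfbp5 held 1286, 314 and 762 CPM there and 151, 1016 and 811 CPM in Otos-led cells, so that the groups overlapped. Otos-led cells held little Igfbp4, at 101, 31.9 and 32.4 CPM. The ligand Igf1 stood at 0, 170 and 174 CPM in Dcn-led cells, with 25.0% of its 40 UMIs in 1 cell, beside 212 CPM of summed marginal markers. Igfbp3, the main carrier of IGFs in serum, had 23 UMIs in cells, 13 of them in Dcn-led cells, and 1 UMI in nuclei. Igfbp6, which prefers IGF-2, had 10 UMIs in cells, 7 in Dcn-led and 3 in Otos-led cells. Igfbp7 had 31 UMIs in cells, 16 in Dcn-led cells and 6 in a single spindle/root cell. In nuclei Igfbp6 and Igfbp7 were most frequent in the Mgp-led cluster, with 25 of 34 and 11 of 38 UMIs. Igfbp7 overlaps Polr2b and Gm34648 on the other strand.

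**Figure D4:**
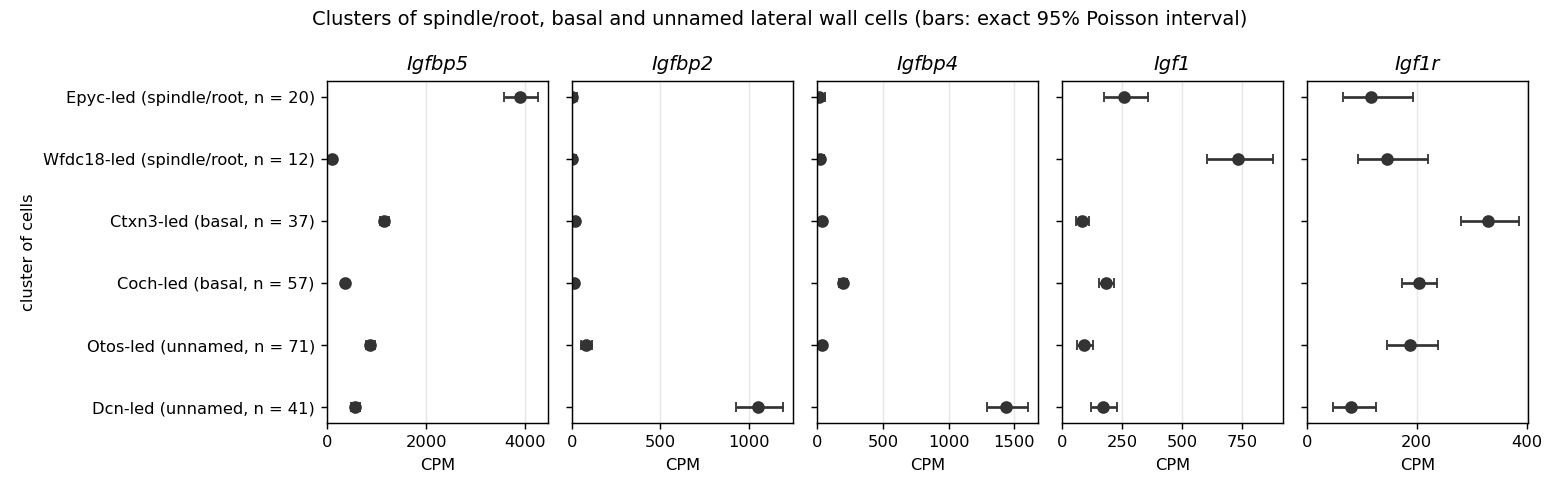
Level in CPM, with exact 95% Poisson intervals, of Igfbp5, Igfbp2, Igfbp4, Igf1 and Igf1r in 6 clusters of spindle/root, basal and unnamed cells. Igfbp5 runs from 96.0 CPM in Wfdc18-led to 3898 CPM in Epyc-led cells, where a single cell held 238 UMIs. Igfbp2 and Igfbp4 are highest in the Dcn-led cluster.

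In nuclei, Igfbp5 in the 48 Meg3-led nuclei rested on a single barcode. The cluster stood at 1320 CPM, but 99 of its 118 UMIs came from 1 nucleus, and without it the level was 266 CPM. Fibrocyte nuclei held 265 CPM and the Mgp-led nuclei 913 CPM of Igfbp5. Igf1r stood at 503 CPM in the Meg3-led nuclei, whose leading genes include Gh, Chgb and Snap25 and whose place in the tissue is not known, and at 348 CPM in Reissner's membrane nuclei. Dcn-led cells held 0, 71.7 and 91.2 CPM of Igf1r and 0, 17.9 and 8.29 CPM of Igf2r.

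The cluster of cells named macrophage held little Igf1, although macrophages are a known source of IGF-1 in other tissues. The 27 cells, which also expressed the monocyte genes Plac8, Ly6c2 and F13a1 among their leading genes, gave 51.1, 71.4 and 85.2 CPM, from 2, 3 and 10 UMIs. These values overlapped those of intermediate cells. Marginal markers summed to 70.5 CPM in the macrophage cells, neutrophil markers to 1264, B cell markers to 494 and macrophage markers to 5822 CPM. Igf1r had 1 UMI in capture 1 and 0 in captures 2 and 3. Igf2r had 0 in all, which puts it at least 3.25-fold below the pooled 49.1 CPM of its lowest SV type. Igfbp4 gave 76.6, 167 and 349 CPM, but 7 of the 27 cells held all of it and the top 5 cells 90.2% of the 51 UMIs.

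Against the mean of the 4 SV types, macrophages had 4 of the 5 tested genes lower and 1 higher, beside 42.6% of all 6604 genes called, 25.7% lower and 16.9% higher, and a median log2 fold change of -0.48 over all genes. Igf1 was lower by -2.35 ± 0.36 (adjusted p = 5.78e-10), Igf1r by -4.67 ± 0.77 (adjusted p = 1.20e-08) and Igfbp5 by -3.44 ± 0.74 (log2, adjusted p = 3.88e-05, edgeR quasi-likelihood test, Benjamini-Hochberg adjusted). The Igfbp5 value rests on 2 UMIs in the 27 macrophages. Without the capture as a block, Igfbp5 did not pass (adjusted p = 0.0625, edgeR), nor at resolutions of 0.4 and 1.2 (adjusted p = 0.157 and 0.108). Igfbp4 was higher by 1.31 ± 0.30 (adjusted p = 9.87e-05, edgeR), and without capture 3 its value was -0.10. Igf2r also passed, and its fold is given only as the bound above. In nuclei the 26 macrophages held 602 CPM of Igf1 (interval 409 to 854) from 31 UMIs, at 2601 CPM of summed marginal markers, and 155 CPM of Igf1r from 8 UMIs. Their leading genes included Siglech, Cox6a2 and Rnase6 beside C1qa and Csf1r. B cell and T cell markers summed to 427 and 233 CPM in these nuclei. A UMI of Igf1 was found in 69.2% of macrophage nuclei, or 23.1% after thinning to 500 UMIs, against 30.4% of B cell nuclei, or 10.6% after thinning. Before thinning, 204 of 480 erythroid and 29 of 71 neutrophil nuclei held it. Their median depths were 5277 and 2036 UMIs, against 1657 in macrophage nuclei. Without doublet removal the macrophage nuclei stood at 273 CPM.

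The nuclei and cells differed in how much of each gene they held. With mitochondrial genes left out and 27240 genes in both lists, Igf1r was higher in nuclei in all 4 types, at 1.73 times the cell level in marginal, 2.32 in intermediate, 2.36 in basal and 2.75 in spindle/root. Igfbp4 was lower in nuclei, at 0.127, 0.237 and 0.187 times in marginal, intermediate and basal, and 0.797 (interval 0.183 to 3.46) in spindle/root. Igf2r was lower in 3 types, at 0.574, 0.567 and 0.474 times, and 1.02 (interval 0.481 to 2.23) in spindle/root. Igfbp5 was lower in marginal, basal and spindle/root, at 0.432, 0.162 and 0.173 times, and its interval in intermediate, 0.912 to 2.64, included 1. Igf1 was near 1 in marginal, at 0.936 (interval 0.899 to 0.975), and higher in nuclei of the other types, at 3.01, 4.54 and 1.50 times. Counting used different gene lists, with 48816 genes for nuclei and 27998 for cells. With 1 capture of nuclei, library, preparation and gene list cannot be told apart, and these intervals cover counting error only.

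**Figure D5:**
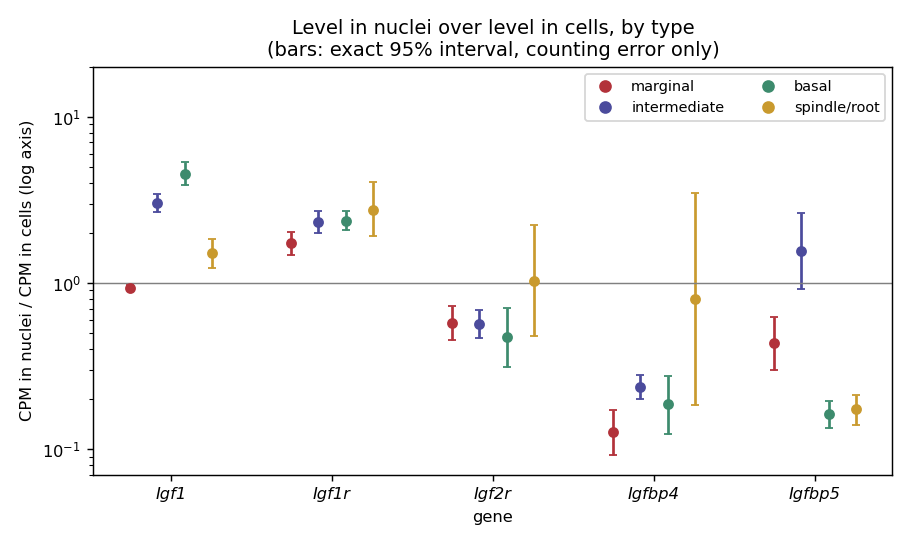
Ratio of the CPM in nuclei to the CPM in cells (log axis) of the 5 tested genes in each SV type, without mitochondrial genes, with 95% intervals from counting error. Igf1r lies above 1 in each type and Igfbp4 below 1 in marginal, intermediate and basal, while Igf1 is near 1 only in marginal, at 0.936.

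Some genes followed the same pattern over the 11 sums of capture and type. By Pearson's r on log2 CPM, Igf1 was most like Ank3 (r = 0.990), Raph1 (0.990) and Atp1b2 (0.987), the last a subunit of the Na,K-ATPase. Igf1r was most like Tns3 (0.979), Pnmal2 (0.967) and Ppp1r1b (0.954), and Igf2r was like Aph1c (0.965) and Idh2 (0.938). Igfbp4 was most like Mfap3l (0.982), Shc4 (0.981) and Thrsp (0.979), and Igfbp5 most like Itih5 (0.986), Mllt4 (0.969) and Slc44a2 (0.962). The sums share captures and types, and the values are a description over 7254 genes without a test.

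The further genes of the pathway, 49 in a list of ligands, receptors, proteases, adaptors and kinases, were tested where counts allowed, which held for 34. Of these, 5 were higher and 2 lower in marginal cells, 5 and 3 in intermediate, 8 and 1 in basal, and 3 and 2 in spindle/root cells. The median log2 fold changes of the list were 0.09, 0.06, 0.17 and -0.25, beside 0.02, 0.02, 0.03 and -0.05 over all genes. The shares of tested list genes called were 20.6%, 23.5%, 26.5% and 14.7%, against 25.5%, 35.8%, 24.2% and 19.6% of all genes, so that the list was near or below the rate over all genes. With DESeq2 the numbers called were 2 in marginal, 4 in intermediate and 3 in spindle/root cells, and without the capture as a block 5 were called in intermediate cells. Without capture 2, 4 were called in marginal, 6 in basal and 2 in spindle/root cells. Without capture 3, 5 were called in intermediate and 2 in spindle/root cells.

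Of 7 receptor adaptors tested, 3 were called in marginal, 3 in intermediate, 1 in basal and 3 in spindle/root cells, beside 25.5%, 35.8%, 24.2% and 19.6% of all genes, and the group itself was not tested. Irs1 and Irs2, the insulin receptor substrates, were higher in marginal cells by 1.07 ± 0.38 (adjusted p = 0.0309) and 1.02 ± 0.35 (log2, adjusted p = 0.0213, edgeR quasi-likelihood test, Benjamini-Hochberg adjusted). Pooled over captures, Irs1 held 33.1 CPM in marginal and 17.2 CPM in intermediate cells, and Irs2 33.8 and 13.5 CPM. Against the mean of the other types, Irs1 stood at 0.14 in intermediate, 0.37 in basal and -1.58 in spindle/root cells (log2), where it did not pass. Between marginal and spindle/root cells alone, 0 of the 7 adaptors were called higher and 1 lower in marginal cells. Ghr, the growth hormone receptor, was also higher in marginal cells, by 1.01 ± 0.32 (adjusted p = 0.0145, edgeR), at 39.7 CPM there against 15.7 CPM in intermediate cells. Dcn-led cells held 106 CPM of Ghr, from 25 UMIs. In intermediate cells Gab1, a docking protein, was lower by -1.76 ± 0.24 (adjusted p = 3.90e-09), while Grb10, an adaptor that dampens the receptors, was higher by 1.10 ± 0.33 (adjusted p = 0.00537) and the adaptor Shc1 by 0.61 ± 0.25 (adjusted p = 0.0460, edgeR). Grb14, a relative of Grb10, was higher in spindle/root cells by 4.94 ± 0.86 (adjusted p = 5.16e-06, edgeR), from 15 UMIs in 32 cells. Gab1 was higher there by 1.53 ± 0.40 (adjusted p = 0.00254) and Shc1 lower by -1.65 ± 0.59 (adjusted p = 0.0364, edgeR).

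Lrp1, an endocytic receptor, had the highest level of the 4 types in basal cells. It was higher by 3.75 ± 0.25 (log2, adjusted p = 1.88e-21, edgeR quasi-likelihood test, Benjamini-Hochberg adjusted), at 153 CPM against 9.93 in marginal, 11.6 in intermediate and 10.5 CPM in spindle/root cells, and it was lower in marginal cells by -1.63 ± 0.52 (adjusted p = 0.0128, edgeR). Dcn-led cells held 377 CPM of Lrp1. Shc1 was higher in basal cells by 1.72 ± 0.25 (adjusted p = 9.02e-08) and Foxo1, a transcription factor that the pathway keeps out of the nucleus, by 1.47 ± 0.29 (adjusted p = 4.51e-05, edgeR). Insr, the insulin receptor, passed in none of the 4 types, with log2 fold changes of 0.32, 0.12, 0.40 and -0.83 in marginal, intermediate, basal and spindle/root cells.

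In macrophages 27 of the list could be tested, and 1 was higher and 7 lower, at a list median of -0.90 beside -0.48 over all genes. This was 29.6% of the list called, below the 42.6% of all genes. Igf2bp3, which binds Igf2 mRNA, was higher by 3.76 ± 0.90 (log2, adjusted p = 0.000168) and Gab1 lower by -3.03 ± 1.02 (adjusted p = 0.00919, edgeR quasi-likelihood test, Benjamini-Hochberg adjusted). Both rest on few UMIs, 9 of Igf2bp3 and 1 of Gab1 in the 27 cells. Ghr had 0 UMIs in macrophages, and a fold is not given.

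The proteases that release IGFs from their binding proteins, and the stanniocalcins that inhibit them, were close to the limit of detection. Over all cells Pappa had 1 UMI, Pappa2 1, Stc1 1, Stc2 3 and Htra1 16. Igfbp1, Igfbpl1 and H19, an imprinted neighbour of Igf2, had 0, and Insrr 1. At this depth their absence cannot be told from a low level.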

How the data were processed

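Single-cell and single-nucleus libraries were prepared by the authors on the 10x Genomics Chromium system. Reads were aligned to mm10 and counted with Cell Ranger, version 2.0.0 per the submitters' processing notes, and the deposited values are raw UMI counts of every gene in every barcode, not normalized, with a matrix for each capture. The methods state default settings, and how strand or intronic reads were handled was not given in the sources used here. The members and gene lists were chosen with earlier results of these data known.

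Barcodes under 200 detected genes were dropped, and Scrublet in scanpy 1.11.5 removed 0.8% of barcodes per 1000 barcodes of a capture as doublets. Median depth before filtering was 5054, 4938, 3878 and 1561 UMIs. Cells and nuclei were clustered separately in Seurat 5.3.0 (R 4.3.3) on 2000 variable genes without the members and pathway list, on 37 and 41 JackStraw components, at a resolution of 0.8. Clusters were named from 114 markers of 15 classes, by a rule revised after clusters had been seen. A cluster whose second class scored above 0.67 of the first stayed unnamed. With a limit of 0.9, added after the data were seen, the Dcn-led cells and Tenm2-led nuclei would be named fibrocyte.

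UMIs were summed per capture and type with at least 5 cells, which gave 11 sums of the 4 SV types where 12 were planned, and 14 with macrophages. Sums were fitted in edgeR 4.0.16 (TMM, filterByExpr, robust quasi-likelihood test) with the capture as block and Benjamini-Hochberg adjustment over all genes. The sums of a capture come from 1 suspension, which pairs them. Over 2781 genes, deviations of 15 same-capture pairs correlated at -0.0346 to 0.34. The comparison of fibrocytes planned beside that of macrophages was not made, because no cluster of cells was named fibrocyte. The fit was tested on simulated data. Nuclei, a single library, carry no test. Named pathway genes were the up to 3 largest called changes per type and a fixed set of relatives. The 3 genes most like a member were taken by Pearson's r. One of those for Igf2r is not reported here. Alternatives were DESeq2 1.42.0, no TMM, no filter, no block, each capture left out, at least 10 cells per sum, resolutions of 0.4 and 1.2, no doublet removal, barcodes over 50% mitochondrial left out, members allowed among variable genes, mitochondrial genes left out, and thinning. Positions are from GENCODE vM21 on mm10, and upstream sequences from RefSeq.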

Additional observations from a re-analysis of the deposited data

Results flagged for a closer look

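Igf1 in spindle/root nuclei differed from cells in the direction of its difference from the mean of the other 3 types. On a log2 scale with 5 CPM added, it was -0.0413 in the capture of nuclei and 0.35 to 1.41 in the captures of cells. Igf2r in spindle/root nuclei stood at 0.0981, and at -0.54 to -0.12 in the captures of cells. Each rests on 1 capture of nuclei, the spindle/root cells number 32, and neither difference was tested.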

How the results depend on the processing

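The counts of called members in intermediate, basal and macrophage cells stayed within 1.5 times of their value under each alternative that was run. In marginal cells the 2 called members became 1 without TMM scaling, without the filter on low counts, at a resolution of 0.4, without barcodes over 50% mitochondrial, with members allowed among the variable genes and without mitochondrial genes, each time through Igfbp5. In spindle/root cells 2 became 4 without the filter. Of the pathway list, DESeq2 called 2 in marginal, 4 in intermediate and 3 in spindle/root cells. The list's count was 5 in intermediate cells without doublet removal, and in spindle/root cells 3 without TMM scaling, 8 at a resolution of 0.4, 9 at 1.2 and 8 with members allowed. The cause was not tested. When each capture was left out in turn, members called ranged from 1 to 2 in marginal, 4 to 5 in intermediate, 3 to 5 in basal, 2 to 3 in spindle/root and 4 to 5 in macrophage cells, and 20 to 24 of the pairwise differences passed. Called pathway genes ranged from 4 to 6, 5 to 6, 6 to 9 and 2 to 5 in the 4 SV types.

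The captures pair the sums, and without the block 5 pathway genes were called in intermediate cells in place of 8, and Igfbp5 in macrophages lost its call. No other call of a member against the mean of the types changed without the block. No paired analysis of cells against nuclei was possible because the nuclei share no suspension with a capture of cells.

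Log2 fold changes that changed sign were small or uncalled apart from Igfbp4 in macrophages. When each capture was left out in turn, Igf1r in marginal cells ranged from -0.0894 to 0.36 and stood at -0.04 without capture 1, Igfbp4 in marginal cells ranged from -0.0315 to 0.22, Igf1 in spindle/root cells from -0.0338 to 1.06, Igf1r in spindle/root cells from -0.58 to 0.19 and Igfbp4 in macrophages from -0.10 to 1.80. At a resolution of 1.2, Igf2r stood at -0.0334 in marginal and 0.0635 in basal cells. In spindle/root cells Igf1 stood at -0.34 without doublet removal and Igf1r at 0.20 without TMM scaling. Of the other values, 311 fold changes kept sign and call, 14 lost the call and 5 gained it. Without TMM scaling the median of all genes moved to -0.31 in intermediate, 0.20 in spindle/root and 0.11 in marginal cells, and called genes in intermediate cells split into 712 higher and 2267 lower, in place of 1300 and 1296. Shares of barcodes with a UMI fell on thinning and are given both ways.

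Limits are the depth and the numbers of cells. The test of macrophage cells was not run with at least 10 cells per sum or without doublet removal, since too few sums or no such class of cells remained. Without capture 2 or 3, spindle/root cells have 1 sum, which is assumed to vary like the other types. The p-values measure how differences between types varied over the captures of pooled mice, after the capture was fitted as a block. The spread of each gene was estimated in part from that of all genes, so small p-values do not rest on the captures alone. Of the members, 5 were too sparse to test among the 4 SV types, and their absence from a type is bounded by 3 UMIs over the group.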

Other observations

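The Igf1 level was unequal among the marginal clusters. The 34 cells led by Bglap3 held 3445 CPM at a median depth of 6634 UMIs, and the 56 cells led by Enpep held 1645 CPM at 14560 UMIs. Igfbp4 ran the other way, with the lowest level in the Bglap3-led cells. Among nuclei, Reissner's membrane held 752 CPM of Igf1 beside 5841 CPM of summed marginal markers, or 129 CPM per 1000 CPM of those markers, against 153 in marginal nuclei. The 38 Tenm2-led nuclei held 747 CPM beside 3014 CPM, or 248 CPM per 1000. These are values of single clusters without a test.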
